A study of Mus musculus with 2 samples.

Results

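The Hippo pathway and its TEAD transcription factors were examined as 10 genes, Yap1, Wwtr1, Tead1, Tead2, Tead3, Tead4, Lats1, Lats2, Amotl1 and Amotl2, of 19086 genes with a probe set on the array. They were chosen by pathway membership, with earlier results of these data known, and looked up by symbol in the deposited table; all probe sets of each gene were kept. That table lists 9 of them under their own symbols, at 15 probe sets. Its older clone names, updated through RefSeq synonyms, gave 5 more probe sets: Wwtr1 stood under 2310058J06Rik, and the Tead1 and Lats1 probe sets with the highest signals under 2610024B07Rik and AW208599. With these, all 10 genes were found, at 20 probe sets.

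RNA came from 3T3-L1, a mouse preadipocyte line that turns into fat cells under hormones. Both libraries were from cells infected with a pMXs-puro retroviral vector, whose LTR promoter the labels call weak. 1 vector was empty and the other carried Fbxl10, the older name of Kdm2b, a histone demethylase that binds CpG-rich DNA. Cells of both were harvested at day 2 after the differentiation cocktail of insulin (1 µg/ml), dexamethasone (0.25 µM) and isobutylmethylxanthine (0.5 mM), in medium with 10% serum, and each library was hybridised to 1 array. No difference below therefore has a replicate check, an error or a test. As a scale for the differences, probe sets of 1 gene on these same arrays varied in their log2 difference with an SD of 0.302, over 4615 genes. The spread was wider for dim genes (SD 0.359, mean signal below 100) than for bright ones (SD 0.198, mean signal 500 or more). It covers neither cultures nor arrays.

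A probe set was taken as detected if its brighter array reached a signal of 19.4, the median over all probe sets and both arrays. The log2 difference subtracts the log2 signal of the empty vector from that of the library labelled Fbxl10 overexpression, called the Fbxl10-labelled library here because of the target gene's own values. Pairs of signals are given with the empty vector first. A gene is represented by its detected probe set with the highest mean log2 signal. The 2 probe sets of Fbxl10 were not higher there, with log2 differences of -0.30 (431.6 and 350.9) and -0.41 (558.5 and 419.6). Whether these probe sets match the Fbxl10 insert of the vector is unknown, so they cannot tell whether the vector raised Fbxl10. Directions are thus between libraries as labelled. Preadipocyte and fibroblast markers were detected for 8 of 8 genes, and their summed signal was 24234 with the empty vector and 35118 in the other. The adipocyte markers went the other way. All 5 with a probe set, Fabp4, Adipoq, Cd36, Lpl and Cidec, were lower by 2-fold or more in the Fbxl10-labelled library, with a summed signal of 15101 with the empty vector and 1623 in the other. Of 16 markers of macrophages, endothelium, epithelium and skeletal muscle, 3 were detected and the highest signal of any was 34.9. In bulk RNA, fewer cells of a type and less RNA per cell cannot be told apart, and the part of the adipocyte difference in the values below was not tested.

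In the Hippo pathway, the kinases Stk3 and Stk4 with the adaptor Sav1 activate Lats1 and Lats2, which act with Mob1 proteins. The LATS kinases phosphorylate the coactivators YAP (Yap1) and TAZ (Wwtr1), which are then held in the cytoplasm and degraded. Unphosphorylated YAP and TAZ enter the nucleus and bind TEAD factors on DNA, and in mesenchymal cells TAZ is known to coactivate the osteoblast factor Runx2 and to restrain the fat cell receptor Pparg. The arrays measured transcripts, so phosphorylation and nuclear entry were not measured here.

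The members differed in direction, with the largest differences within the TEAD family. Tead2 was 2.61-fold higher and Tead4 3.28-fold lower in the Fbxl10-labelled library, and the other 8 genes lay within 2-fold. All 10 genes were detected by 1 or more probe sets. Of the 20 probe sets, 17 were detected, 16 of them with both signals at or above the threshold. The 1 member higher by 2-fold or more stands beside 9.75% of 11326 detected genes (1104), and the 1 member lower by 2-fold or more beside 5.33% (604). Over 10 genes, both counts are near the background. With the scale set by the hybridization spike-ins, 757 detected genes were higher by 2-fold or more and 955 lower, and the member counts stayed at 1 and 1. The log2 shift removed by spike-in centring was 0.22, the mean over 18 spike-in probe sets that ranged from 0.02 to 0.33. By representative probe set 7 members lay above 0 and 3 below, against 6117 and 5203 of all detected genes. With spike-in centring 5 members lay above 0 and 5 below. The median log2 difference of the members was 0.24, against 0.06 over all detected genes, and with spike-in centring these were 0.02 and -0.16.

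**Figure D1:**
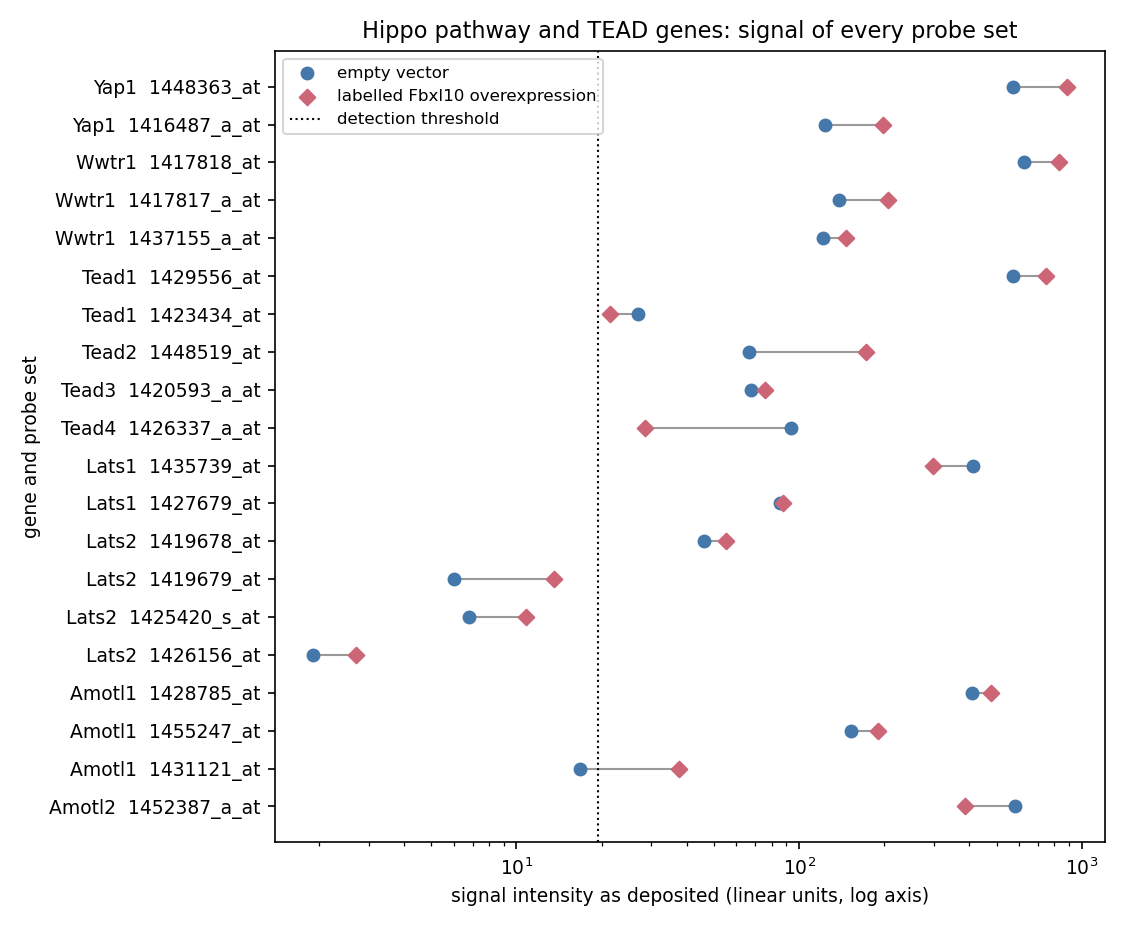
Signal of the 20 probe sets of the 10 members (rows) on the array of the empty vector library (circles) and of the Fbxl10-labelled library (diamonds), on a log axis in the linear units as deposited, with 1 array per library and no error bars. The widest gaps among probe sets with both signals past the threshold of 19.4 (dotted line) are those of Tead2 and Tead4, in opposite directions.

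**Figure D2:**
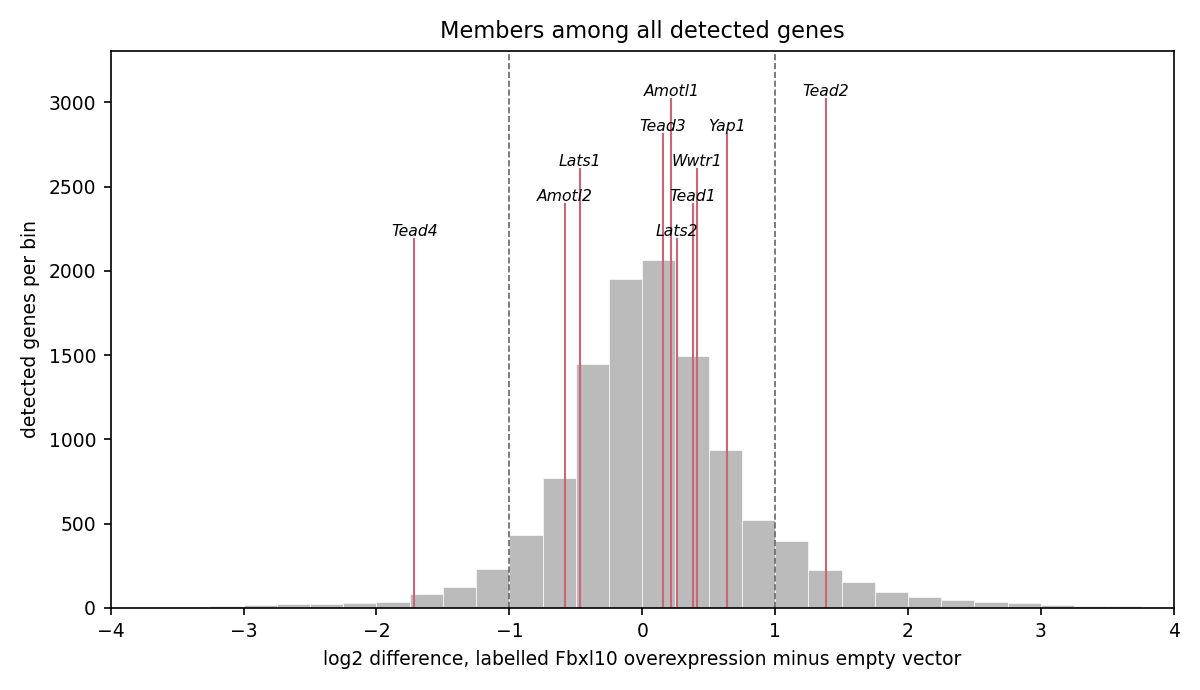
Distribution of the log2 difference over 11326 detected genes (grey bars, counts per bin of 0.25), with the 10 members marked by red lines at their representative probe sets and dashed lines at 2-fold. The axis runs from -4 to 4, and genes beyond it are not drawn. Tead2 and Tead4 lie outside the dashed lines and the other 8 members inside.

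Both coactivator genes read higher in the Fbxl10-labelled library, within 2-fold, at all 5 of their probe sets. Probe set 1448363_at of Yap1 read 570.8 with the empty vector and 886.6 in the other, 1.55-fold higher (log2 difference 0.64). The further Yap1 probe set, 1416487_a_at, read 123.8 and 198.2, a log2 difference of 0.68. The pair thus differed from each other by far less than the SD between probe sets. Of all detected genes, 17.8% had a log2 difference at least as high as that of Yap1. For Wwtr1, probe set 1417818_at read 625.9 and 833.1, 1.33-fold higher (log2 difference 0.41). Probe set 1417817_a_at of the gene read 138.9 and 206.1 (0.57), and 1437155_a_at read 121.7 and 146.8 (0.27). By Affymetrix naming, a suffix of _a_at marks probes that match several transcripts of 1 gene. The direction of Yap1 and Wwtr1 held under all 12 alternatives that gave Yap1 a value and all 11 that gave one for Wwtr1, with log2 differences between 0.41 and 0.74 for Yap1 and between 0.19 and 0.52 for Wwtr1. The filters, the raising of dim signals and the second table could not change either gene, since their representative probe sets are bright. The difference between both genes, 0.22, was smaller than the SD expected between 2 probe sets, 0.428.

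The windows of 250 bases upstream of the RefSeq starts of Yap1 and Wwtr1 are shown because each holds GGAATG, the core sequence that TEAD factors bind, once (in capitals). They are written 5′ to 3′ on the strand of the gene, from RefSeq, build GRCm38.p6. The window of Yap1, chr9:8004597-8004846 on the minus strand, holds 44 CpG dinucleotides, and that of Wwtr1, chr3:57575911-57576160 on the minus strand, holds 18.
Yap1: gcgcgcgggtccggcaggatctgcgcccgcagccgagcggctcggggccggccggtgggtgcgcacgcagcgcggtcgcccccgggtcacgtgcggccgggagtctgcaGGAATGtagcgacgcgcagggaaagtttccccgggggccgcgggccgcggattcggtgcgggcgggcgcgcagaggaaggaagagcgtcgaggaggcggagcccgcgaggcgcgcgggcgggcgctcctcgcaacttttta
Wwtr1: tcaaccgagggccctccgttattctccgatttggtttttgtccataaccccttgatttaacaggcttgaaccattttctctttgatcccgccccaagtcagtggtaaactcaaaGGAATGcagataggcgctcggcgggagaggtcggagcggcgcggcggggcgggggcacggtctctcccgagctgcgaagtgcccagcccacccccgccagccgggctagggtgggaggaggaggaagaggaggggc

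The 4 TEAD factors, which bind the same DNA core and need YAP, TAZ or a Vestigial-like protein to activate transcription, did not share a direction. Tead2, expressed early in mouse embryos, read 66.2 with the empty vector and 172.8 in the Fbxl10-labelled library (probe set 1448519_at, log2 difference 1.38). Among 2157 detected genes whose mean log2 signal lay within 0.5 of that of Tead2, 6.86% were higher by 2-fold or more and 3.52% at least as high as Tead2. Tead4, which is best known from the trophectoderm of the mouse embryo and from muscle, read 93.8 and 28.6 (1426337_a_at, log2 difference -1.71). Among 1597 detected genes within the same distance of Tead4 in mean signal, 4.76% were lower by 2-fold or more and 1.57% at least as low as Tead4. Tead2 and Tead4 have 1 probe set each, so neither difference could be checked on a further probe set of the gene. Tead2 stayed between 1.16 and 1.38 over 12 alternatives, and Tead4 between -1.93 and -1.50 over the 11 that gave it a value. The filters, the raising of dim signals, the median over probe sets and the second table could not change a value that they kept. With a minimum of 100 for the higher signal Tead4 had no value, since its higher signal was 93.8.

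The contrast between Tead2 and Tead4 does not depend on how the arrays are centred, because any constant shift cancels. The log2 difference of Tead2 exceeded that of Tead4 by 3.10, an 8.56-fold change of 1 signal relative to the other. This contrast lay between 2.70 and 3.20 over the 11 alternatives with values for both. Only quantile normalization, removal of the brightness trend and the authors' ratio could change it, and the others returned the same contrast. It is larger than the SD of 0.428 expected between 2 probe sets of 1 gene, which is a scale and not a test. That SD covers neither cultures nor arrays, and Tead2 and Tead4 are the highest and lowest of the 10 members. Levels of different probe sets are not comparable, so these values do not order the TEAD genes by abundance.

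Tead1, a broadly expressed family member, was represented differently by its 2 probe sets. Probe set 1429556_at, listed under the clone name, read 571.9 and 744.3, 1.30-fold higher in the Fbxl10-labelled library (log2 difference 0.38). The probe set listed as Tead1, 1423434_at, read 26.8 and 21.5 (-0.32), close to the threshold. The direction of Tead1 thus depended on the probe set, and the median over both was 0.03. Tead3, known for its expression in placenta, read 67.8 and 75.6 (1420593_a_at), a log2 difference of 0.16. Its value was -0.01 with quantile normalization, -0.06 with spike-in centring and 0.80 in the authors' deposited table, where it departs from the ratio of the deposited signals by more than rounding. No direction can be given for Tead3.

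**Figure D3:**
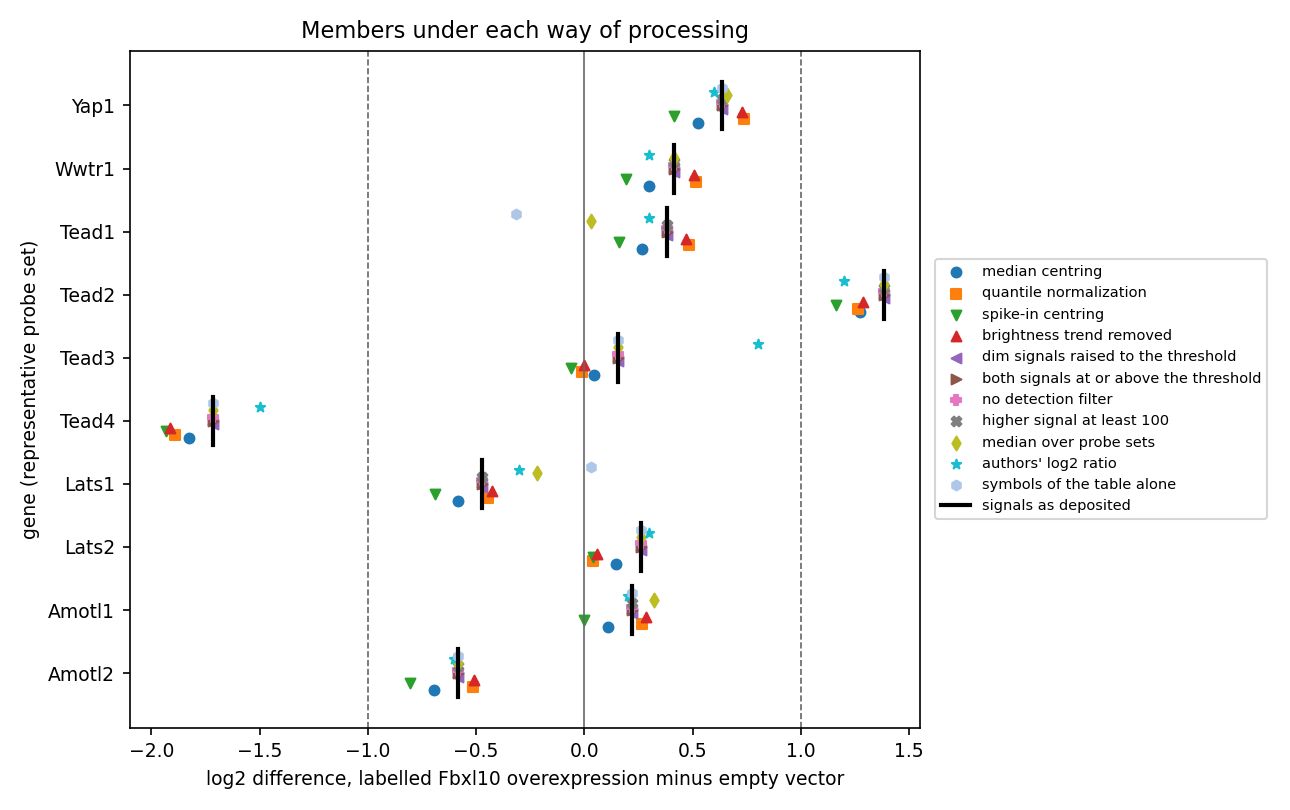
Log2 difference of each member (rows), Fbxl10-labelled library minus empty vector, by the signals as deposited (black bars) and under 11 alternatives (coloured marks; the second table, identical, is not drawn), with dashed lines at 2-fold. Tead2 stays to the right of 1 and Tead4 to the left of -1 wherever they have a value, whereas marks of Tead1, Tead3 and Lats1 lie on both sides of 0 and the lowest mark of Amotl1 at -0.002.

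The window upstream of Tead2 is shown as that of the 1 member higher by 2-fold or more. It lies at chr7:45215542-45215791 on the plus strand and holds 7 CpG dinucleotides, and neither GGAATG nor its reverse complement CATTCC is among its letters.
Tead2: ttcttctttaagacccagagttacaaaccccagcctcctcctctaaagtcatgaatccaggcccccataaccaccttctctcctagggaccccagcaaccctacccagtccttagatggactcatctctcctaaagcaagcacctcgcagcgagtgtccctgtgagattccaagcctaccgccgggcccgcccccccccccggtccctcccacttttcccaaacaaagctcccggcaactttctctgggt

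The kinases that act on YAP and TAZ lay within 2-fold. Lats1 read 413.3 with the empty vector and 298.2 in the other at 1435739_at, 1.39-fold lower in the Fbxl10-labelled library (log2 difference -0.47). At 1427679_at it read 85.8 and 87.6 (0.03), so the probe set listed as Lats1 in the table showed no such difference. For Lats2, which is also a transcriptional target of YAP in other cells, 1 of 4 probe sets was detected. Probe set 1419678_at read 46.2 and 55.3, 1.20-fold higher (log2 difference 0.26). The 3 others, 1419679_at, 1425420_s_at and 1426156_at, had signals between 1.9 and 13.6, all under the threshold, and give no fold. The log2 difference of Lats2 exceeded that of Lats1 by 0.73, and by 0.23 to 0.73 over the 11 alternatives with both values; the 0.23, less than the SD of 0.428 between 2 probe sets, came from the symbols of the table alone. A probe set shared between Xpo4 and Lats2, 1421055_at, read 134.6 and 90.8 and was assigned to neither gene.

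The angiomotin-like genes, whose proteins bind YAP and TAZ at cell junctions and keep them out of the nucleus, went in different directions. Amotl2, a known target of YAP as well as an inhibitor, read 578.5 with the empty vector and 386.3 in the Fbxl10-labelled library (1452387_a_at), 1.50-fold lower (log2 difference -0.58). It was below 0 under all 12 alternatives, between -0.80 and -0.51, but only the scalings and the authors' ratio could change its value. Amotl1 read 408.8 and 475.9 at 1428785_at (log2 difference 0.22) and 152.4 and 190.5 at 1455247_at (0.32). At the dimmest probe set, 1431121_at, it read 16.8 and 37.5, at least 1.93-fold higher over the threshold. All 3 probe sets of Amotl1 were thus higher in the Fbxl10-labelled library, but with spike-in centring the representative one was at -0.002. The log2 difference of Amotl1 exceeded that of Amotl2 by 0.80, and by 0.78 to 0.90 over the 12 alternatives. Amot, the third family member and not among the 10, read 440.7 and 770.4 (0.81), and all 3 of its probe sets, each detected, lay from 0.41 to 0.93.

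Lats2 and Amotl2 are both members and known targets, and the windows of Lats2, not shown, hold neither GGAATG nor CATTCC. The window upstream of Amotl2, at chr9:102717554-102717803 on the plus strand, is shown. It holds CATTCC once, in capitals, and 21 CpG dinucleotides.
Amotl2: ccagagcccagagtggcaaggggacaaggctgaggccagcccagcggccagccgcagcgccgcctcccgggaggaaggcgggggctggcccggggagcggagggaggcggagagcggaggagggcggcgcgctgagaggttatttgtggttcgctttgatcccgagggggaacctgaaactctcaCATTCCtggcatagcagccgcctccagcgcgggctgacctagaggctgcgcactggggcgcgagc
Of the 8 members with a window in the RefSeq table (Tead1 and Tead4 are not in it), 4 held GGAATG or CATTCC in 1 or more windows: Yap1, Wwtr1, Tead3 and Amotl2. Over all 27025 genes with a window the share was 14.4%. The 12 windows of the members held between 4 and 44 CpG dinucleotides with a median of 20, against a median of 6 over all 32851 windows. Those windows belong to genes detected here or not. Neither trait was particular to the members. The windows of Ptpn14 and Vgll4 held 34 and 28 CpG dinucleotides, and those of Amot and Fat1 held 3 and 2. Windows of Ajuba, Fat1, Ptpn14, Vgll3 and Vgll4 held GGAATG or CATTCC, and those of Amot, Fat4, Frmd6 and Runx2 did not. A match is a match of letters, and no binding was measured.

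Other genes of the pathway were taken from 3 lists chosen with earlier results of these data known. Of 46 genes, 45 had a probe set and 39 were detected. By the signals as deposited 8 were higher by 2-fold or more and 2 lower by 2-fold or more in the Fbxl10-labelled library, against shares of 9.75% and 5.33% over all detected genes. With spike-in centring 5 were higher and 2 lower, against 6.68% and 8.43% of all detected genes. With median centring 5 were higher and 2 lower, against 8.04% and 6.52%. Quantile normalization gave 8 and 2, against 7.37% and 6.89%. Removal of the brightness trend also gave 8 and 2, against 6.22% and 6.97%. The median over the 39 was 0.26, against 0.06 over all detected genes.

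Kinases and adaptors had a median close to 0, at 0.07 and at -0.15 with spike-in centring, but single genes ran from -0.72 to 1.23. Of 14 detected genes, 1 was higher by 2-fold or more and 0 lower. Of all detected genes, 9.75% were higher and 5.33% lower by that much. The 1 higher kinase was Map4k5, which can phosphorylate LATS in parallel to Stk3 and Stk4 and read 278.6 and 653.3 (2.34-fold higher). Its 4 detected probe sets lay between 0.82 and 1.33 on the log2 scale, the lowest of them with 1 signal under the threshold. Map4k2 (34.8 and 21.1, log2 difference -0.72) and Stk25 (141.8 and 99.4, -0.51) were the lowest of this list, and the 2 detected probe sets of Map4k2 differed in sign.

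Scaffolds and upstream inputs had 5 of 20 detected genes higher by 2-fold or more and 1 lower on the deposited scale, against 2 higher and 1 lower with spike-in centring. Over all detected genes the shares were 9.75% higher and 5.33% lower on the deposited scale, and 6.68% and 8.43% with spike-in centring. The spike-in counts of this list are thus near the background. With quantile normalization the counts were again 5 and 1, against 7.37% and 6.89%. With the brightness trend removed they were also 5 and 1, against 6.22% and 6.97%, so the count of higher genes depended on the scaling. Fat4, an atypical cadherin that signals to the pathway in mammals in a tissue-dependent way, read 49.2 and 461.7 (9.38-fold higher). Ajuba, a LIM protein that inhibits LATS and is listed as Jub, read 68.7 and 280.6 (4.08-fold higher). Fat1, a further atypical cadherin, read 1302 and 2732 (2.10-fold higher). The remaining genes past 2-fold in this direction, the FERM protein Frmd6 (2.08-fold) and the scaffold Dlg5 (2.08-fold), were named after their values were seen, and 1 of 3 detected probe sets of Dlg5 went the other way (23.7 and 6.5, at least 1.22-fold lower). Wwc1, the scaffold KIBRA that activates LATS, was under the threshold in the Fbxl10-labelled library (55.9 and 15.9), at least 2.88-fold lower. Nf2, the tumour suppressor merlin (178.4 and 139.3, log2 difference -0.36), and Mob4 of the STRIPAK phosphatase complex, which opposes Stk3 and Stk4 (713.0 and 458.4, -0.64), were within 2-fold.

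Partners of TEAD and TAZ differed in direction, with 2 of 5 detected genes higher by 2-fold or more and 1 lower, the same with spike-in centring. Over all detected genes the shares were 9.75% higher and 5.33% lower, and 6.68% and 8.43% with spike-in centring. The median of 0.76 was the value of Pax3, and it lay between 0.35 and 0.86 over the 12 alternatives. Vgll3, a Vestigial-like cofactor that binds TEAD factors in place of YAP, read 186.8 and 441.2, 2.36-fold higher, with 3 of 3 probe sets between 1.15 and 1.53. Vgll4, a TEAD-binding repressor that competes with YAP, read 138.2 and 131.8 (log2 difference -0.07). Runx2 read 158.9 and 618.5, 3.89-fold higher in the Fbxl10-labelled library, although a dimmer probe set was at 0.20 on the log2 scale. Pparg read 912.2 and 150.8, 6.05-fold lower, beside the adipocyte markers that were also lower. Pax3, a developmental factor that TAZ can coactivate, read 24.7 and 41.9 (0.76). Vgll1, Vgll2 and Tbx5 were not detected.

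**Figure D4:**
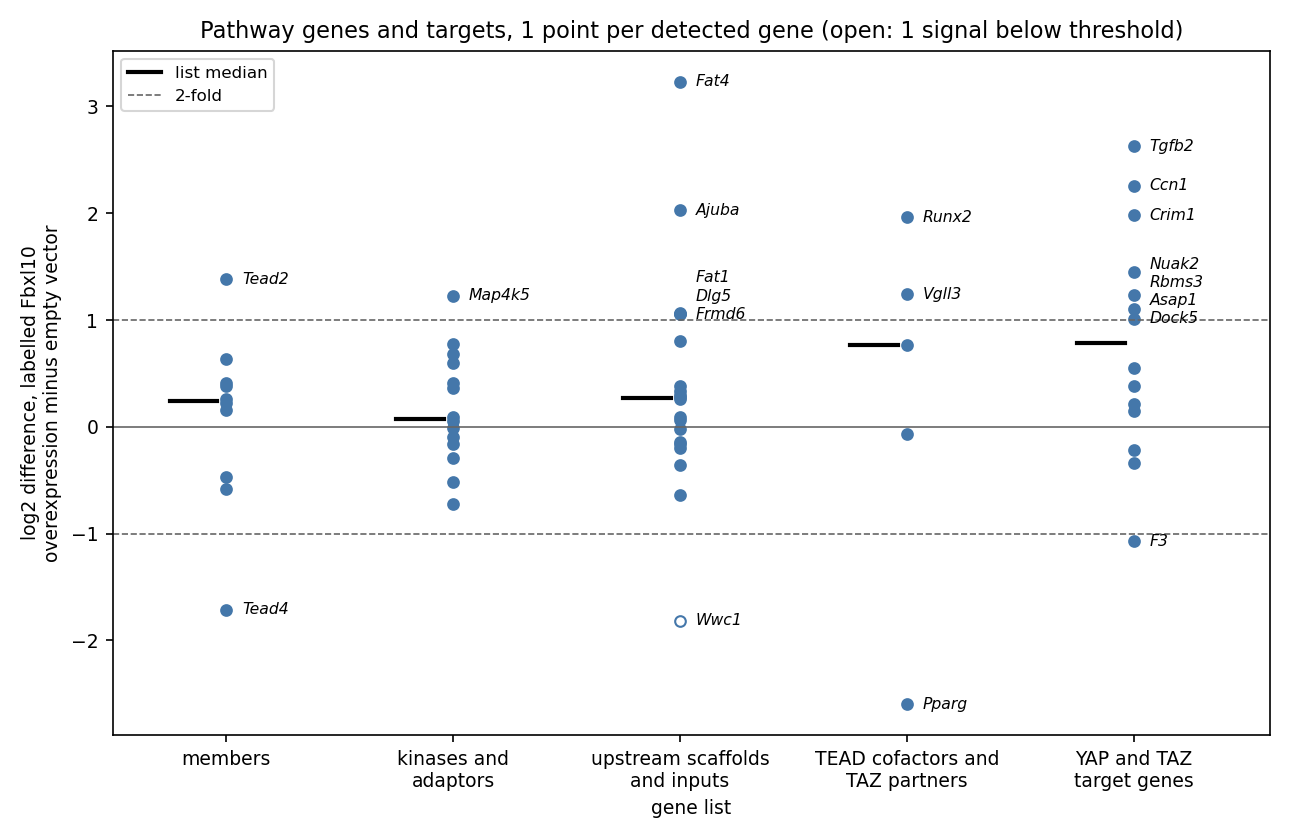
Log2 difference of each detected gene (points, 1 per gene at its representative probe set; the open point had 1 signal below the threshold) in the members, the 3 pathway lists and the target list, with list medians (black bars) and dashed lines at 2-fold. Genes past 2-fold are named. The 3 names stacked near 1 in the upstream list, Fat1, Dlg5 and Frmd6, belong to points that lie almost on top of each other.

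Genes known as targets of YAP and TAZ, mostly from human cell lines, were higher more often than lower, as all detected genes also were on the deposited scale. Of 20 genes outside the members, 19 had a probe set and 14 were detected. Of these, 7 were higher by 2-fold or more and 1 lower by 2-fold or more on the deposited scale, against 5 and 1 with spike-in centring. Of all detected genes, 9.75% were higher and 5.33% lower by that much on the deposited scale, and 6.68% and 8.43% with spike-in centring. The median was 0.78, against 0.06 over all detected genes, and lay between 0.38 and 0.86 over the 12 alternatives. Tgfb2, a TGF beta ligand, read 50.5 with the empty vector and 311.8 in the other, 6.17-fold higher, and its 5 detected probe sets lay between 2.63 and 3.86 on the log2 scale, 2 of them with the empty vector signal under the threshold. Ccn1, the matricellular protein CYR61, read 59.8 and 285.6 (4.78-fold higher), with 4 probe sets between 2.26 and 3.17. Crim1, a transmembrane binder of BMP ligands, read 37.0 and 146.0 (3.95-fold higher), although its second detected probe set was at 0.37. The kinase Nuak2 read 21.2 and 58.0 (2.74-fold higher) and the RNA-binding protein Rbms3 read 415.6 and 979.9 (2.36-fold higher).

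The lowest of the targets were below 0 or within 2-fold. F3, tissue factor, was 2.10-fold lower (646.6 and 307.5). Foxf2 (93.7 and 74.1, log2 difference -0.34) and Arhgef17 (268.8 and 231.4, -0.22) were below 0. The receptor tyrosine kinase Axl read 460.6 and 509.3 (0.15) and Ccdc80, a secreted matrix protein, 101.1 and 117.1 (0.21), with a dimmer probe set at 24.3 and 57.8 (1.25). The widely used reporters of YAP activity Ccn2 (CTGF) and Ankrd1 were not detected: Ccn2 read 0.4 and 4.0, and the higher of the Ankrd1 probe sets 11.2 and 4.0, all under the threshold of 19.4. Of the targets named by rule, Ccn2, Ccn1, Ankrd1 and Axl, both Ccn1 and Axl were detected, with log2 differences of 2.26 and 0.15.

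**Figure D5:**
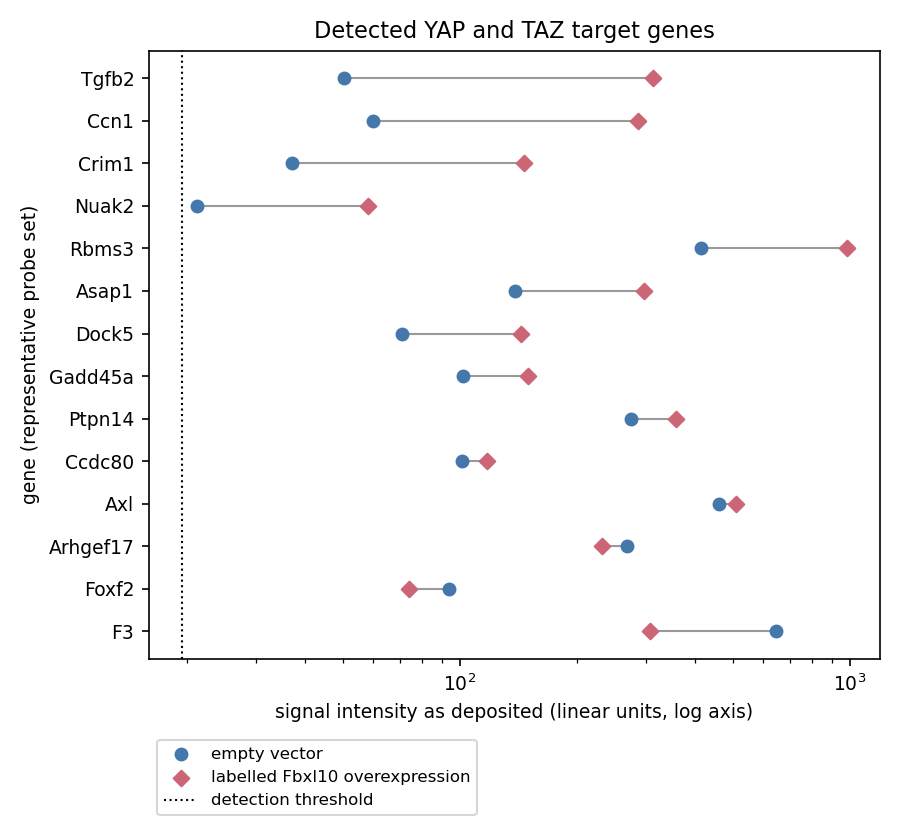
Signals of the 14 detected YAP and TAZ target genes (rows, representative probe set) on the empty vector array (circles) and the array of the Fbxl10-labelled library (diamonds), on a log axis in deposited linear units, with 1 array each. In 11 genes the diamond lies to the right of the circle and in 3, Arhgef17, Foxf2 and F3, to the left.

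Among the detected targets, the windows of Axl, Crim1 and Ptpn14 also held GGAATG or CATTCC, whereas those of Tgfb2, Rbms3, F3 and Foxf2 held neither. The window upstream of Ccn1 is shown as that of a detected target with a match, and does not stand for the list. It lies at chr3:145649986-145650235 on the minus strand, with 15 CpG dinucleotides and CATTCC once, in capitals.
Ccn1: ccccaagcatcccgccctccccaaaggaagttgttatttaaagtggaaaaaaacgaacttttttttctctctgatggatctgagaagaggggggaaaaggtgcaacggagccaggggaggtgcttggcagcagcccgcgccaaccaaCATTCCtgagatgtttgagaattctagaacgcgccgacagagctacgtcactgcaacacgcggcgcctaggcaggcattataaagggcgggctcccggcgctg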

How the data were processed

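Per the labels, biotin-labelled total RNA of each sample was hybridised to 1 Affymetrix array. The authors deposited 1 signal intensity per probe set on a linear scale, for 45101 probe sets, scaled to equal means (100 after trimming 2% at each end on both arrays). The software behind these intensities is not given in the sources used here. The deposited table also holds the authors' log2 ratio to 1 decimal, and a second table held the same signals (0 differed). The log2 difference was computed from the signals, and 4 probe sets with a signal of 0 had none.

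Symbols were updated through RefSeq synonyms (GRCm38.p6, names and promoter sequences only): 33957 probe sets had 1 symbol, of which 31550 matched. A symbol that is itself current was kept. Bounds ("at least") divide the higher signal by the threshold of 19.4 or the lower signal, whichever is larger. Motifs were searched on both strands. The members, lists, thresholds and shown sequences were chosen with earlier results of these data known. The genes named are all members, the 6 highest and 6 lowest of the pathway lists, every detected TEAD partner, the 5 highest and 5 lowest targets, and Ccn2, Ccn1, Ankrd1 and Axl. Amot, Frmd6, Dlg5, Map4k4, Ptpn14, Stk3, Stk4, tafazzin and the marker genes were named outside this rule, after their values were seen. No test was run with 1 array per group, which is also what limits the precision.

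Alternatives were 4 scalings (median, quantile, spike-ins, and lowess with a span of 0.3), raising dim signals to the threshold, 3 other detection filters, the median over probe sets, the authors' ratio and the second table. The symbols of the table alone were added after seeing the data. Steps were tested on simulated data, and run with Python 3.11.15, pandas 2.3.3 and statsmodels 0.14.6.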

Additional observations from a re-analysis of the deposited data

How the results depend on the processing

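With 1 array per group, no alternative carries an error. For genes with both signals above the thresholds, the filters, the raising of dim signals and the second table leave the value unchanged. The count of members higher by 2-fold or more was 1 under all 12 alternatives. The count of members lower by 2-fold or more was 1 under 11, and 0 with a minimum signal of 100, which leaves Tead4 out. For the 3 pathway lists, 5 genes were higher by 2-fold or more with median centring and with spike-in centring. With quantile normalization and with the brightness trend removed 8 were. By the symbols of the table alone 3 were higher, against 9.78% of all detected genes. Many listed genes are not found under these symbols, with 8 kinases and adaptors, 12 upstream genes and 4 partners detected. The pathway genes lower by 2-fold or more were 1 with both signals required at the threshold, with a minimum signal of 100 and by the symbols of the table alone. Without a detection filter 3 targets were lower by 2-fold or more. Tead1 was at 0.03 as the median over probe sets and at -0.32 by the symbols of the table alone, and Lats1 at 0.03 by those symbols. Without a filter, 3278 of all 19085 genes were higher by 2-fold or more and 1993 lower. These counts were 645 and 439 of 10112 genes with both signals required, and 485 and 387 of 7329 with a minimum of 100. With the brightness trend removed they were 704 and 789 of 11326. Signals under 19.4 limit what can be said of Lats2, Ccn2 and Ankrd1. No paired analysis was possible because each group has 1 array.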

Other observations

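The name TAZ leads to different genes in the deposited table. The symbol Taz there is described as tafazzin, a mitochondrial cardiolipin enzyme, and its detected probe set read 234.1 and 287.1 (log2 difference 0.29). RefSeq lists Taz as a synonym of Wwtr1 as well, so a search by that synonym would add tafazzin to the pathway. By the symbols of the table alone Wwtr1 has no row, Tead1 reads 26.8 and 21.5, and Lats1 reads 85.8 and 87.6. The rows under older clone names read 625.9 and 833.1 for Wwtr1, 571.9 and 744.3 for Tead1, and 413.3 and 298.2 for Lats1.

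Within the pathway, probe sets of 1 gene sometimes disagreed by more than the SD of 0.302. The 3 detected probe sets of Map4k4, a kinase upstream of LATS, ran from -0.11 to 1.18 in log2 difference, those of Dlg5 from -1.87 (with 1 signal under the threshold) to 1.19, those of Ptpn14, a phosphatase that binds YAP, from -0.24 to 0.80, and those of Runx2 from 0.20 to 1.96. Stk3, the kinase at the head of the pathway, was above 0 at all 3 of its detected probe sets, between 0.68 and 1.35, while its paralogue Stk4 lay between -0.24 and 0.08.

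The ratio in the authors' deposited table departed most from the ratio of the signals at Tead3 among the 20 probe sets of the members. It was 0.80 there, 0.64 above the log2 ratio of the deposited signals. Probe set 1417817_a_at of Wwtr1 departed the other way, by -0.37.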
